A study of Malus domestica with 6 samples.

Results

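Among the 63517 apple gene models measured in the seeds of young fruits, 43 were already transcribed in central fruit seeds and stood at a far higher level in lateral fruit seeds. They were selected on their RPKM values (reads scaled for the length of a gene model and the size of a library) in all 6 libraries. To be included, a gene model needed a central mean of at least 1 RPKM, a largest central value under 2.5 times the smallest, no lateral value under 40 RPKM, and a smallest lateral value at least 3 times the largest central value. In all, 44 gene models met these limits, and MDP0000848905, a putative ethylene response factor, was left aside, with means of 287 RPKM in lateral and 10.8 RPKM in central fruit seeds. Since the comparison of lateral with central fruit seeds chose the genes, its values are given here as a description and support nothing by themselves.

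The seeds came from lateral fruits of middle size (L2) and from central fruits of the cultivar Golden Delicious, dissected at 20 days after petal fall (DAPF) from adult field-grown trees that had received no thinning treatment. Each type of seed was represented by 3 libraries, each of them a pool of seeds taken from several fruitlets. Lateral fruits of a cluster bloom later than the central one, so the position and the age of a fruit cannot be told apart. In whole seeds, a change in the number of cells of one kind and a change in RNA per cell cannot be told apart either.

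An apple cluster opens with its central flower, and the lateral fruits that follow it are those most often shed in the early drop. Developing seeds are a source of auxin for the fruit, and the flow of this hormone through the stalk helps to keep the abscission zone closed, while ethylene favours its opening. None of the 43 identifiers is annotated in the gene table at hand, so each gene is called by its gene model number and no function is given to it.

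The reads behind the RPKM values were recovered and came to 14238640, 37767724 and 24200553 in lateral replicates 1, 2 and 3, against 21515775 to 30451293 in the central ones. Depth was thus lowest in lateral replicate 1 and highest in lateral replicate 2. According to the names of the data columns, these 2 libraries were sequenced in lane 8, and lateral replicate 3 and all central libraries in lane 7. Lane 8 thus held lateral fruit seeds only. The identity of the tissue could not be checked against seed marker genes, because the identifiers carry no names here.

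The 43 gene models together took 0.884%, 0.533% and 0.666% of all RPKM in lateral replicates 1, 2 and 3, against 0.0648%, 0.0938% and 0.0845% in central replicates 1, 2 and 3. Every one of them was among the 5000 highest gene models of each lateral library, whereas 4 or 5 of them were so in each central library. Their median rank was 1262, 2360 and 1827 in lateral replicates 1, 2 and 3, and 14271, 12338 and 11468 in central replicates 1, 2 and 3. They thus stood near the top of the list in lateral fruit seeds and far further down in central ones. The limits on the lateral and central values largely fixed these ranks in advance. Lateral means ranged from 50.4 to 989 RPKM with a median of 108 RPKM, and central means from 1.16 to 153 RPKM with a median of 12.8 RPKM.

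**Figure D1:**
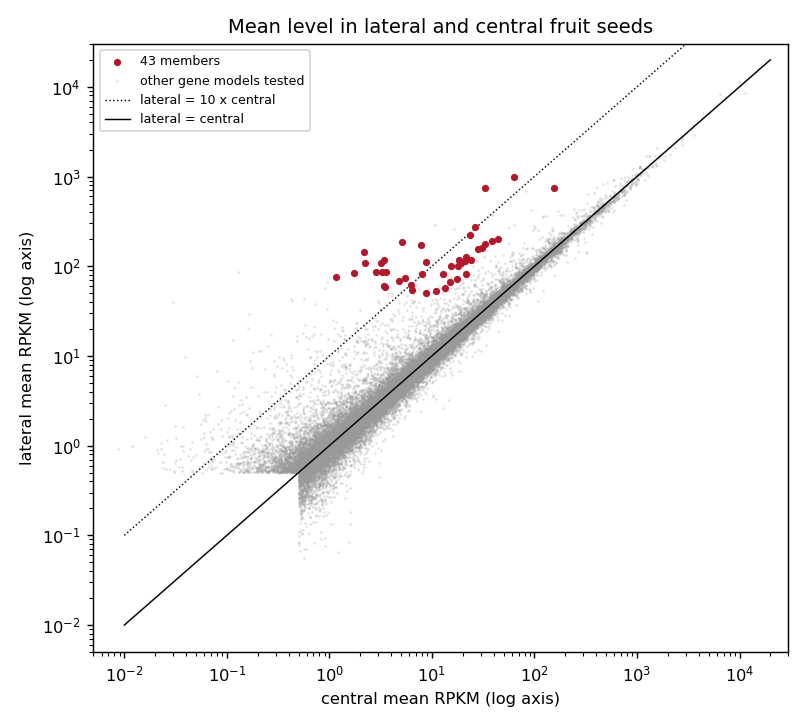
Mean RPKM in lateral fruit seeds (vertical, log axis) against the mean in central fruit seeds (horizontal, log axis), 1 point per gene model, with the 43 selected gene models marked. Shown are the 37196 gene models that averaged 0.5 RPKM or more in either type of seed and had both means above 0. The marked points lie above the diagonal of equal levels, between 50.4 and 989 RPKM in lateral and between 1.16 and 153 RPKM in central fruit seeds.

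The lateral mean was divided by the central one, and this ratio ranged from 3.82 to 66.1, with a median of 9.41. It reached at least 20 in 12 gene models, lay from 10 to under 20 in 8 and from 5 to under 10 in 15, and was under 5 in the remaining 8. On the log2(RPKM + 0.5) scale the difference between lateral and central fruit seeds was 1.91 to 5.74 with a median of 3.13, while the median over all 37230 gene models tested was -0.02. In the limma fit of the whole table, 43 of 43 were called higher in lateral fruit seeds, beside 3.39% of all gene models tested. This count follows from the selection, which used the same values.

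The steepest member of the group was MDP0000700383. It had 210.3, 91.8 and 128 RPKM in lateral replicates 1, 2 and 3, against 1.47, 1.59 and 3.45 RPKM in central replicates 1, 2 and 3. Its mean was 143 ± 60.7 RPKM in lateral and 2.17 ± 1.11 RPKM in central fruit seeds (SD, n = 3 each), which gives a ratio of 66.1. The lateral libraries of this gene differed from each other by a factor of 2.29, and even the lowest of them was 26.6 times the highest central one. Its central values rest on only 15, 23 and 37 reads, so the size of the ratio is known only roughly.

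MDP0000769493, with a ratio of 64.5, had the lowest central level and the widest gap of the group. Its values were 95.1, 46.0 and 83.7 RPKM in lateral fruit seeds, against 0.856, 1.33 and 1.30 RPKM in central fruit seeds. These rest on 368, 472 and 550 reads in the lateral libraries and on 5, 11 and 8 reads in the central ones. The 5 reads of central replicate 1 have a 95% exact Poisson interval of 1.62 to 11.7 reads, which covers counting error only. The size of the ratio is therefore known only roughly. The smallest lateral value was 34.6 times the largest central one, a quantity that the selection itself bounded from below.

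A further pair had ratios close to 50. MDP0000265157 gave 161, 70.6 and 95.5 RPKM in lateral and 1.40, 2.69 and 2.56 RPKM in central fruit seeds, a ratio of 49.2. MDP0000745805 gave 115, 56.3 and 79.4 RPKM in lateral and 1.52, 1.44 and 2.25 RPKM in central fruit seeds, a ratio of 48.2. In both, lateral replicate 1 was the highest and lateral replicate 2 the lowest of the lateral libraries, while the central libraries were all under 3 RPKM. The central values rest on 14, 38 and 27 reads for MDP0000265157 and on 9, 12 and 14 reads for MDP0000745805. Both ratios are therefore also known only roughly.

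MDP0000323296 had a ratio of 36.1, from 281, 107 and 171 RPKM in lateral and 4.64, 4.92 and 5.88 RPKM in central fruit seeds. Its lateral spread, the largest lateral value over the smallest, was the largest of the group at 2.63. Its central values stayed within a factor of 1.27. For this gene the replicates of lateral fruit seeds thus lay further apart than those of central fruit seeds.

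MDP0000232642 and MDP0000347896 followed each other across all libraries. MDP0000232642 had 154, 83.2 and 117 RPKM in lateral and 2.43, 4.49 and 3.21 RPKM in central fruit seeds. MDP0000347896 had 137, 76.6 and 111 RPKM in lateral and 2.16, 4.27 and 3.14 RPKM in central fruit seeds. Their ratios were 35.0 and 33.9. In both, lateral replicate 1 was the highest library and central replicate 1 the lowest.

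MDP0000307237, with a ratio of 30.2, had 114, 60.8 and 81.5 RPKM in lateral and 2.59, 3.49 and 2.42 RPKM in central fruit seeds. MDP0000166796, with a ratio of 26.7, had 131, 55.2 and 73.0 RPKM in lateral and 3.72, 3.26 and 2.74 RPKM in central fruit seeds. In both genes central replicate 3 was the lowest library, which was so in 3 of the 43. MDP0000198015, with a ratio of 23.8, had 138, 52.7 and 65.8 RPKM in lateral and 1.87, 4.28 and 4.63 RPKM in central fruit seeds. Its central replicate 1 lay far under the other two.

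MDP0000334047, with a ratio of 22.1, had 269, 103 and 149.5 RPKM in lateral and 6.52, 8.40 and 8.72 RPKM in central fruit seeds. MDP0000688645 had nearly the same ratio of 22.7 at a far higher level, with 796, 666 and 777 RPKM in lateral and 22.3, 46.1 and 30.3 RPKM in central fruit seeds. These genes show that steepness and spread were not bound to each other in every case. The lateral values of MDP0000334047 differed by a factor of 2.62 and those of MDP0000688645 by a factor of 1.2. In all of the 12 steepest gene models the lateral libraries stood in the order replicate 1, replicate 3, replicate 2 from high to low.

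**Figure D2:**
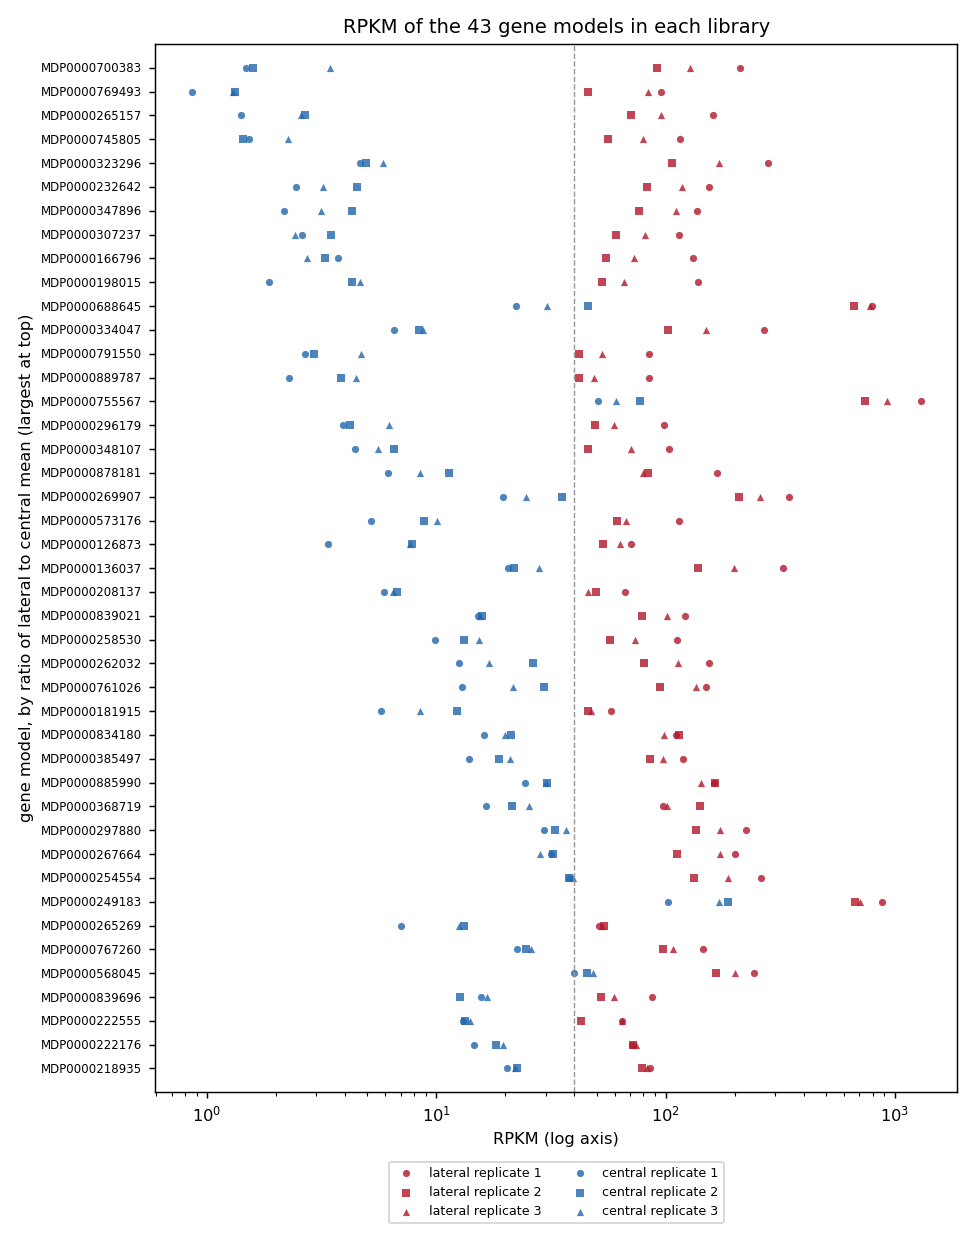
RPKM (horizontal, log axis) of the 43 gene models in the 3 lateral and the 3 central libraries, with 1 row per gene model from the largest ratio at the top, 1 point per library and a dashed line at 40 RPKM. All lateral values lie at or above 41.8 RPKM, while the central medians are 9.89, 13.1 and 14.0 RPKM in replicates 1, 2 and 3.

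The highest lateral level belonged to MDP0000755567, with 1299, 742 and 924 RPKM in lateral and 50.5, 77.5 and 60.8 RPKM in central fruit seeds. Its mean was 989 ± 284 RPKM in lateral and 62.9 ± 13.6 RPKM in central fruit seeds (SD, n = 3 each), which gives a ratio of 15.7. In lateral replicate 1 it ranked number 28 of all gene models. It was thus an abundant transcript of lateral fruit seeds and a well expressed one in central fruit seeds.

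MDP0000249183 followed with 877, 673 and 708 RPKM in lateral and 102, 187 and 171 RPKM in central fruit seeds. Its means were 753 ± 109 RPKM in lateral and 153 ± 45.1 RPKM in central fruit seeds (SD, n = 3 each), and this central level was the highest of the group. The ratio was 4.90, among the lower ones. Together with MDP0000688645, these were the gene models whose lateral mean was 746 RPKM or more, and the remaining 40 had lateral means of 271 RPKM or less.

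Next in lateral level came MDP0000269907, with 345, 209.5 and 258 RPKM in lateral and 19.5, 35.2 and 24.7 RPKM in central fruit seeds, a ratio of 10.2. MDP0000136037, at the median ratio of 9.41, had 324, 138 and 199 RPKM in lateral and 20.5, 21.7 and 28.1 RPKM in central fruit seeds. Their replicates behaved differently, since the central values of the first were the more scattered and the lateral values of the second. MDP0000568045 had 244, 165 and 199.7 RPKM in lateral and 39.7, 45.5 and 48.3 RPKM in central fruit seeds, a ratio of 4.56. MDP0000254554 had 259, 132 and 186 RPKM in lateral and 37.7, 37.9 and 39.5 RPKM in central fruit seeds, a ratio of 5.02. Its central libraries were nearly level, while its lateral ones spanned a factor of 1.96.

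The spread among the lateral libraries varied widely within the group, from a factor of 1.04 to 2.63 with a median of 1.79. It was at least 2 in 13 gene models and under 1.2 in 6. For comparison, the other 4330 gene models with all lateral values of 40 RPKM or more had a median lateral spread of 1.13, and the 188 of these that limma called higher in lateral fruit seeds had 1.33. Among the central libraries, where the selection itself capped the factor, the spread of the 43 was 1.04 to 2.47 with a median of 1.54, against 1.14 for the 4330 and 1.30 for the 188. The medians of the 43 were thus the higher ones for both kinds of seed. Their central level was the lower, with a median central mean of 12.8 RPKM against 81.7 RPKM for the 4330 and 37.8 RPKM for the 188. The limma call that chose the 188 also weighed the spread between replicates. Their median ratio of lateral to central mean was 2.12, against 9.41 for the 43. As the selection used these libraries, neither the difference in spread nor the part of level in it was tested.

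The lateral spread was wider where the ratio was higher. Its median was 2.18 in the 12 gene models with a ratio of at least 20, 2.01 in the 8 from 10 to under 20, 1.54 in the 15 from 5 to under 10 and 1.39 in the 8 under 5. Across the 43 gene models, ratio and lateral spread on log2 scales had a Pearson's r of 0.65 and a Spearman's rho of 0.69. These coefficients describe genes measured in the same 6 libraries, which are not independent of each other, and both measures contain the lateral values.

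**Figure D3:**
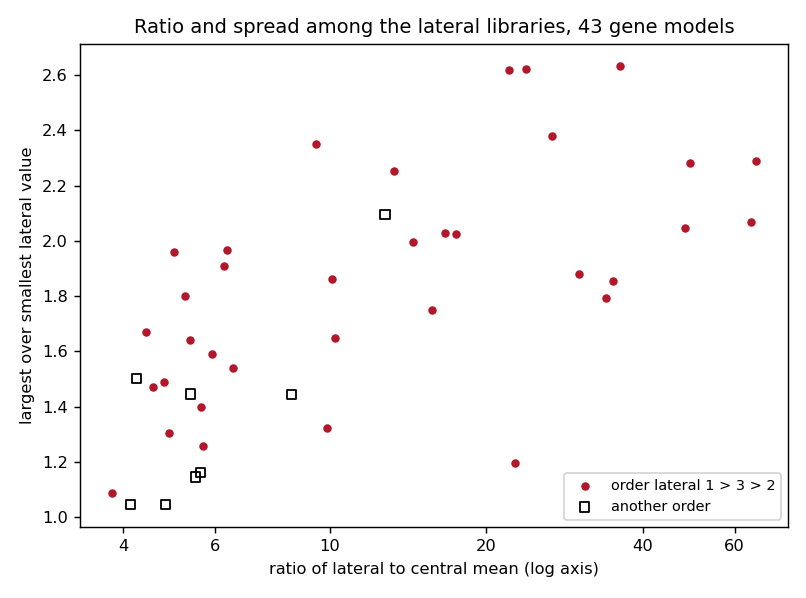
Largest over smallest lateral value (vertical) against the ratio of lateral to central means (horizontal, log axis), 1 point for each of the 43 gene models. Most gene models with a ratio of 20 or more have a spread near 2 or above, with MDP0000688645 at 1.2 as the lowest of them, and those under a ratio of 5 lie between 1.04 and 1.67.

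At the narrow end of the spread, MDP0000222176 had 71.0, 71.8 and 74.1 RPKM in lateral and 14.6, 18.2 and 19.6 RPKM in central fruit seeds, a ratio of 4.14. MDP0000265269 had 51.4, 53.7 and 52.7 RPKM in lateral and 6.99, 13.1 and 12.5 RPKM in central fruit seeds, a ratio of 4.83. The lateral libraries were practically level in both genes. MDP0000218935, the gene model with the smallest ratio of 3.82, had 85.7, 78.9 and 83.0 RPKM in lateral and 20.3, 22.5 and 22 RPKM in central fruit seeds. MDP0000885990 had 163, 164 and 143 RPKM in lateral and 24.4, 30.5 and 30.1 RPKM in central fruit seeds, a ratio of 5.52. For these genes no lateral library stood clearly over the rest. At the wide end, next to MDP0000323296, stood MDP0000334047 and MDP0000198015, both at a factor of 2.62, and MDP0000166796 at 2.38.

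Lateral replicate 1 was the highest lateral library in 37 of the 43 gene models and lateral replicate 2 the lowest in 36. The full order of replicate 1, replicate 3, replicate 2 was found in 35, or 81.4%. Among the other 4330 gene models with all lateral values of 40 RPKM or more, it was found in 711, or 16.4%, and among the 188 of these called higher in 106, or 56.4%. Relative to a gene's own lateral mean, the medians of the 43 were 1.27, 0.750 and 0.942 in lateral replicates 1, 2 and 3, against 0.983, 1.02 and 0.991 for the 4330. The lateral libraries were thus close to level for the 4330 and apart for the 43. Lateral replicate 1 over lateral replicate 2 had a median of 1.79 in the 43, 1.27 in the 188 and 0.964 in the 4330. This is a description of the libraries that chose the genes, with no test.

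**Figure D4:**
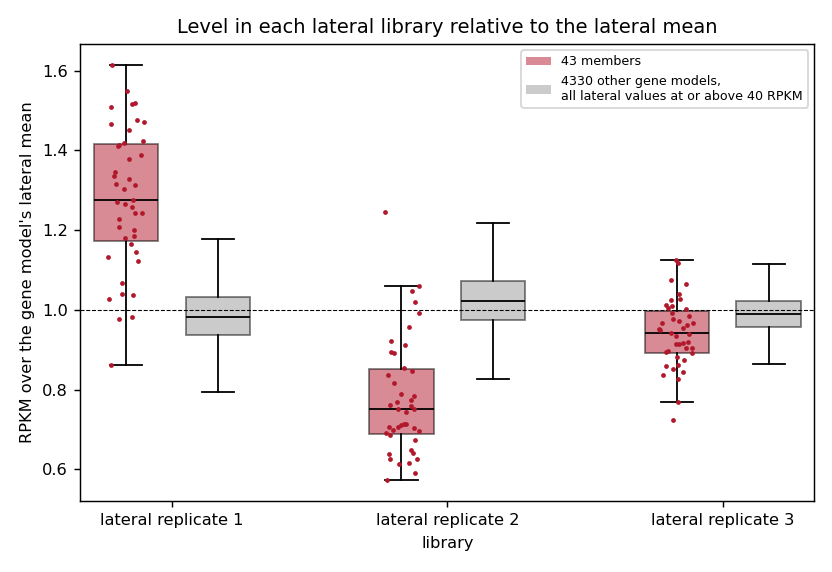
RPKM in lateral replicates 1, 2 and 3 divided by the lateral mean of the same gene model, for the 43 selected gene models and for the other 4330 with all lateral values of 40 RPKM or more. Boxes span the quartiles with the median as a line and whiskers reach up to 1.5 times that range. The medians of the 43 fall at 1.27, 0.750 and 0.942, and those of the 4330 at 0.983, 1.02 and 0.991.

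An exception was MDP0000368719, with 97.7, 141 and 101 RPKM in lateral and 16.4, 21.4 and 25.3 RPKM in central fruit seeds. Lateral replicate 2 was its highest library by a factor of 1.45 over the lowest. The same library was also the highest, by much smaller margins, in MDP0000265269, MDP0000834180 and MDP0000885990. Lateral replicate 3 was the highest in MDP0000222176 and, at 64.4 RPKM beside 64.2 RPKM in lateral replicate 1, in MDP0000222555.

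The recovered reads show the same pattern in another form. Lateral replicate 2 was sequenced 2.65 times as deep as lateral replicate 1, and the median gene model of the 4330 had 2.75 times the reads there. The 188 of these called higher in lateral fruit seeds had a median of 2.08 times the reads, also under the ratio of the depths. The 43 had a median of only 1.48 times the reads, with a range from 1.01 to 3.83, and 38 of them lay under the ratio of the depths. In 8 gene models the reads differed by a factor under 1.2. MDP0000323296, for example, had 2401, 2418 and 2479 reads in lateral replicates 1, 2 and 3, against 60, 90 and 80 reads in the central ones. MDP0000334047 had 3552, 3595 and 3353 reads in the lateral libraries, against 130, 237 and 183 reads in the central ones. For such genes the number of reads hardly moved with depth across the lateral libraries, and the part of depth in this was not tested.

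**Figure D5:**
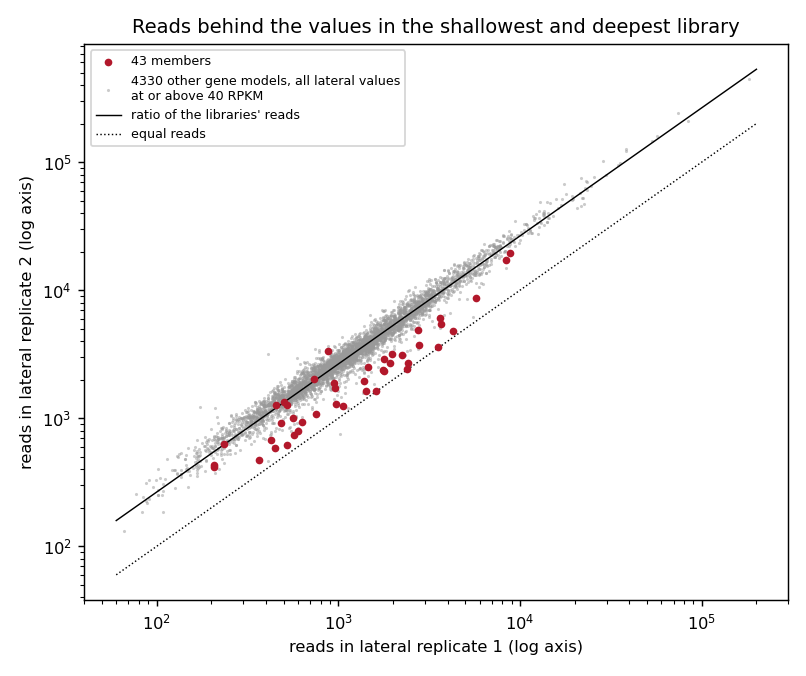
Recovered reads in lateral replicate 2 (vertical, log axis) against those in lateral replicate 1 (horizontal, log axis) for the 43 gene models and, in grey, the 4330 others, with 1 line for equal reads and 1 for the ratio of the depths, 2.65. Of the 43 points, 38 lie under the line of the depths, and the median ratio is 1.48.

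The replicates also allow a view within lane 7, which rests on lateral replicate 3 alone. There the lateral value was 3.84 to 72.0 times the central mean, with a median of 8.34, and at least 10 times in 18 gene models. The median was 11.2 for lateral replicate 1 and 7.66 for lateral replicate 2, both from lane 8. The libraries of lane 8 thus lay on either side of lateral replicate 3. With 1 lateral library in lane 7, this comparison has no replicate check. The selection also required each lateral value to be at least 3 times the largest central one. A high ratio in lateral replicate 3 was thus fixed in advance, and the part of the lane was not tested.

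In central fruit seeds, replicate 1 was the lowest library in 38 of the 43 gene models, or 88.4%. The share was 27.4% among the 4330 other gene models and 66.5% among the 188 called higher. Central replicate 2 was the highest in 22 of the 43 and central replicate 3 in 20. MDP0000126873, for instance, had 70.5, 53.3 and 63.1 RPKM in lateral and 3.38, 7.80 and 7.71 RPKM in central fruit seeds, a ratio of 9.89. By contrast, the central values of MDP0000839021, at 15.2, 15.8 and 15.5 RPKM, were the most even of the group, beside 122, 79.0 and 102 RPKM in lateral fruit seeds.

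Several gene models had profiles so alike that their values may not be independent. Of the 903 pairs among the 43, 3 had a log2 ratio whose SD over the 6 libraries was under 0.1. MDP0000834180 stood at 0.664 to 0.700 times MDP0000885990 in every library, MDP0000232642 at 1.02 to 1.13 times MDP0000347896, and MDP0000767260 at 0.537 to 0.596 times MDP0000568045. The values of MDP0000834180 were 111, 114 and 98.6 RPKM in lateral and 16.2, 21.2 and 20.0 RPKM in central fruit seeds. Those of MDP0000767260 were 145, 97.6 and 107 RPKM in lateral and 22.4, 24.6 and 25.9 RPKM in central fruit seeds. Apple carries many duplicated genes, and reads that fit more than 1 place were included in the values, so near-identical copies cannot be told apart here.

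For 32 of the 43, none of the 20203 gene models above 0 in every library and averaging 5 RPKM or more had a profile within this distance. Where one did, it was not always in the group. The nearest profile to MDP0000568045 was that of MDP0000331021, at an SD of 0.0582, and MDP0000262032 had MDP0000140635 at 0.0864. MDP0000334047 had no profile within this distance, and its nearest was that of the putative ethylene response factor MDP0000848905, at an SD of 0.209. This measure of likeness covers 6 libraries of 2 kinds of seed and says nothing of shared function.

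The gene models were short, with a median recovered length of 612 bases and a range from 205 to 1701 bases, and 20 of them were under 500 bases. The 4330 others of like lateral level had a median of 834 bases, the 188 called higher 714 bases and all gene models tested 1026 bases. Of all recovered lengths 97.4% were multiples of 3, as were 42 of the 43 here, so these are mostly coding lengths. Every one of the 43 had at least 200 reads in each lateral library, but 13 had under 100 reads in every central library. Counting error is thus largest for the central values of those 13, although it is not the only source of spread between replicates.

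The genes nearest to each limit were compared on both sides of it. On the smallest lateral value, MDP0000889787, MDP0000791550 and MDP0000222555 were just inside at 41.8, 41.9 and 42.9 RPKM, while MDP0000158129, MDP0000342721 and MDP0000733075 were just outside at 39.8, 38.4 and 37.5 RPKM. This limit alone kept out 90 gene models. On the smallest lateral over the largest central value, MDP0000222555, MDP0000262032 and MDP0000839696 were inside at 3.07, 3.08 and 3.14, and MDP0000132623, MDP0000894041 and MDP0000165880 outside at 2.997, 2.989 and 2.976. This was by far the most selective limit, and alone it kept out 4307 gene models. On the central spread, MDP0000198015, MDP0000700383 and MDP0000126873 were inside at 2.47, 2.34 and 2.31, and MDP0000188613, MDP0000868045 and MDP0000320017 outside at 2.81, 3.18 and 3.36. This limit kept out 7 gene models alone. The limit on the central mean kept out MDP0000170739 and MDP0000545122, at 0.942 and 0.909 RPKM. The values nearest to each other across these limits were 41.8 and 39.8 RPKM, 3.07 and 2.997, and 2.47 and 2.81. On the central spread the next value outside, 3.18, lay as far again from 2.81, so no break at that limit can be read from them.

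A list of 12 hormone genes named in the study, which cover ethylene synthesis and response, gibberellin breakdown, abscisic acid response and auxin transport, was set beside the group. Some of these genes were picked by the study from the libraries analysed here, which for those is no independent evidence of direction, and others were markers from earlier work. Of the 12, limma called 8 higher in lateral fruit seeds and 2 lower, beside 3.39% called higher and 0.459% called lower of all gene models tested. All limits were met by 1 of them, MDP0000848905. A smallest lateral value under 40 RPKM kept out 9 of them, and 5 missed a single limit. MdACO1 (MDP0000195885), an ACC oxidase that makes ethylene, averaged 259.5 RPKM in lateral and 16.4 RPKM in central fruit seeds, and its central libraries differed by a factor of 9.96. MDP0000137705, a putative gibberellin 2-oxidase that inactivates gibberellins, had 359.9 RPKM in lateral and 129 RPKM in central fruit seeds, and its smallest lateral value was 1.96 times its largest central one. MdABR1 (MDP0000235028), a putative negative regulator of the abscisic acid response, had a smallest lateral value of 13.6 RPKM. MdAHS (MDP0000154046), a putative auxin transporter, was not called, with 6.54 RPKM in lateral and 7.05 RPKM in central fruit seeds. The 9 genes with a lateral value under 40 RPKM averaged 6.54 to 20.1 RPKM in lateral fruit seeds, under the level of every one of the 43.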

How the data were processed

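RNA of whole seeds was sequenced in 6 libraries, 3 of lateral and 3 of central fruit seeds, grouped by the fruit type in their labels. The deposited RPKM values were computed by the authors, who trimmed and aligned their reads with the apple genome v1.0 as reference and used the CLC Genomics Workbench for expression over 63517 gene models. RPKM already scales for the mapped reads of a library, and no further scaling between libraries had been applied. Short gene models or near-identical copies can be affected by how reads were placed.

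The gene models were selected by the limits given above, and both they and the lists were chosen with earlier results of these data known. As the values are not counts, the background came from limma 3.58.1 in R 4.3.3 (lmFit, then eBayes with its trend option), run on log2(RPKM + 0.5) for all gene models that averaged 0.5 RPKM or more in either type of seed. This understates the change of low genes. Calls needed a Benjamini-Hochberg adjusted p of at most 0.05 over all 37230 gene models and a fold change of at least 1.5. The p-values set the difference between the types of seed against the spread between pools. Lane 8 held lateral fruit seeds only, so any difference between lanes would enter both. Members were described with Python 3.11.15, numpy 2.4.6 and pandas 2.3.3 and plotted with matplotlib 3.10.9. Reads were recovered as the shortest length of 60 to 30000 bases that gave whole reads in all libraries within 0.001, given the mapped reads per library stated in the study, since the deposited values are RPKM alone, for 55261 of the 55261 gene models above 0. Where all reads of a gene share a divisor, its length and reads are too small by that factor. Both steps were tested on simulated data.

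Genes were named by rule: the 12 largest ratios, the 8 highest lateral means, the 3 nearest to each limit on each side, the 4 widest and 4 narrowest lateral spreads and those with near-identical profiles. Others, such as MDP0000368719 and MDP0000839021, were chosen after their values were seen. Alternatives were other limits, scalings, pseudocounts and filters, no trend, the replicate number as a block, voom on the recovered reads and each library left out. The order of the lateral libraries under other scalings was added after seeing the data. Of the hormone genes in the study, some are counted but not named.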

Additional observations from a re-analysis of the deposited data

How the results depend on the processing

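The number of gene models that met the limits was 27 when the smallest lateral value had to be at least 4 times the largest central one, against 43. Leaving out 1 library at a time gave 44 to 68, with the highest number without lateral replicate 2, and all 43 were among those found each time. Fewer libraries can only ease the limits on the lateral minimum, the separation and the central spread, so this says little about stability. The other limits and scalings gave 35 to 59. The median ratio of the 43 was 7.48 to 10.6 when 1 library at a time was left out, with the lowest value without lateral replicate 1, and 7.66 from medians in place of means. The order of the lateral libraries was found in 36 of the 43 after scaling by the median ratio and in 35 after scaling to a common total, both chosen after seeing the data.

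In the fits of the whole table, limma called 875 to 1151 gene models higher in lateral fruit seeds with 1 library left out and 1035 to 1291 under the other alternatives, against 1262. All 43 were called higher in each of these fits, which used the values of the selection. The replicate block gave 1035 calls and 43 of the 43. Libraries of the same number did not deviate together over the gene models tested (correlations of 0.01, -0.12 and -0.13). The labels name no pairing by number, and these values cannot show that there was none. Depth limits chiefly the central values, 5 reads being the fewest behind one.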
